A study of Mus musculus with 8 samples.

Results

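Cassette microexons are very short exons that a transcript either keeps or skips as a whole between the same neighbouring exons. Here they are the cassette exons of 1 to 27 nt in the deposited event tables of mouse spermatocytes and round spermatids, with an exon of given chromosome, strand, start and end counted once. There were 617 of them among 45500 distinct cassette exons, and the other 44883 were 28 nt or longer. The table of round spermatids listed 477 of the microexons and that of spermatocytes 525, with 385 in both, 92 in round spermatids alone and 140 in spermatocytes alone.

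The study sorted spermatocytes, the germ cells in meiosis, and round spermatids, the haploid cells that follow them, out of adult C57BL/6 mouse testes by FACS after Hoechst staining, and sequenced their polyA RNA. The 4 groups of the labels were Larp7 knock-out round spermatids, wild type round spermatids, Larp7 knock-out spermatocytes and wild type spermatocytes, with 2 libraries each. The protein Larp7 binds and stabilises the 7SK RNA. The knock-out was conditional, and the promoter that drove the Cre, the animals' ages in days and whether each library came from its own animal were not given in the sources used here. P-values therefore measure the spread between these libraries, which may be technical.

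The deposited tables number the 2 sample groups of each stage without saying which genotype either is. A difference within a stage is therefore the level of group 1 minus that of group 2, no genotype direction is given, and the libraries of a group are in the order of the table's cells. Where 4 values of a stage are given, those of group 1 come before those of group 2. A cassette exon of the targeted gene Larp7 (minus strand of mm10 chromosome 3, 127544154 to 127544278) had an inclusion level of 0.279% and 0.598% in group 1 of round spermatids, where group 2 had 100% in each library. In spermatocytes it was included at 2.4% and 0.951% in group 1, and group 2 again had 100% in each library. The reads over all splicing events summed to between 49904607 and 93265932 per round spermatid library and between 51786242 and 102000320 per spermatocyte library, and overlapping events share reads, so these sums are no library totals. The 12 spermatocyte markers were at a summed level of 4830 to 5630 per 1000000 reads in round spermatids and of 8810 to 9820 in spermatocytes. Ybx2 alone made up most of these sums, and without it, a choice made after the values were seen, the other 11 were at 1000 to 1110 in round spermatids and 2830 to 4710 in spermatocytes. The 6 round spermatid markers with an event in both stages were at 2380 to 2700 in round spermatids and at 584 to 678 in spermatocytes. Prm1, Prm2, Tnp1, Tnp2 and Tssk1 had no listed event in either stage, and Acrv1 none in spermatocytes.

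Microexons are best known from neurons, where the splicing factor Srrm4 and its relatives promote their inclusion. Because an exon so short gives the splicing machinery little room to assemble across it, its recognition leans on the flanking introns. A length divisible by 3 leaves the reading frame downstream unchanged, so that inclusion adds a few amino acids, whereas any other length shifts the frame.

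The full exon with both splice sites could be read for 2 microexons, from RefSeq promoter sequences of build GRCm38.p6, and these are shown to give the scale of such an exon. The exon is in capitals and the intron on either side in lower case.
Pgap2 20-nt exon, chr7:102222782-102222801, plus strand: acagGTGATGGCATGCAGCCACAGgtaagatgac
Supt20 24-nt exon, chr3:54693103-54693126, plus strand: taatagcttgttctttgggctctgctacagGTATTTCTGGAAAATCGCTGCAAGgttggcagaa
Both have ag directly before the exon and gt directly after it. The Pgap2 exon holds a stop codon in 1 of the 3 frames, counted within the exon, and the Supt20 exon in 0. Pgap2, a protein of GPI-anchor remodelling, had its exon included at 47.5%, 53.3%, 46.3% and 45.5% in round spermatids and at 53.1%, 37.9%, 48.9% and 53.4% in spermatocytes. Its length is no multiple of 3, and since the sequence comes from a window around a transcription start, the exon may lie outside the coding part. Supt20, a subunit of the SAGA coactivator complex, had its exon at 100%, 100%, 100% and 97.0% in round spermatids and at 93.2%, 98.1%, 91.8% and 100% in spermatocytes.

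Lengths ran from 3 to 27 nt with a median of 21 nt, against a median of 119 nt for the other cassette exons. Lengths divisible by 3 prevailed, with 405 of 617 microexons (65.6%) against 38.7% of the other cassette exons. The share was 45 of 54 (83.3%) at 1 to 9 nt, 123 of 158 (77.8%) at 10 to 18 nt and 237 of 405 (58.5%) at 19 to 27 nt. The most frequent lengths were 27 nt with 92 exons, 24 nt with 76, 21 nt with 69 and 25 nt with 49. Just inside the limit stood 31 exons of 26 nt and 92 of 27 nt, and just outside it 30 of 28 nt and 45 of 29 nt, while 30 nt, again a multiple of 3, had 96. The tables mark no coding sequence, so a length divisible by 3 says nothing of whether an exon lies in the coding part.

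**Figure D1:**
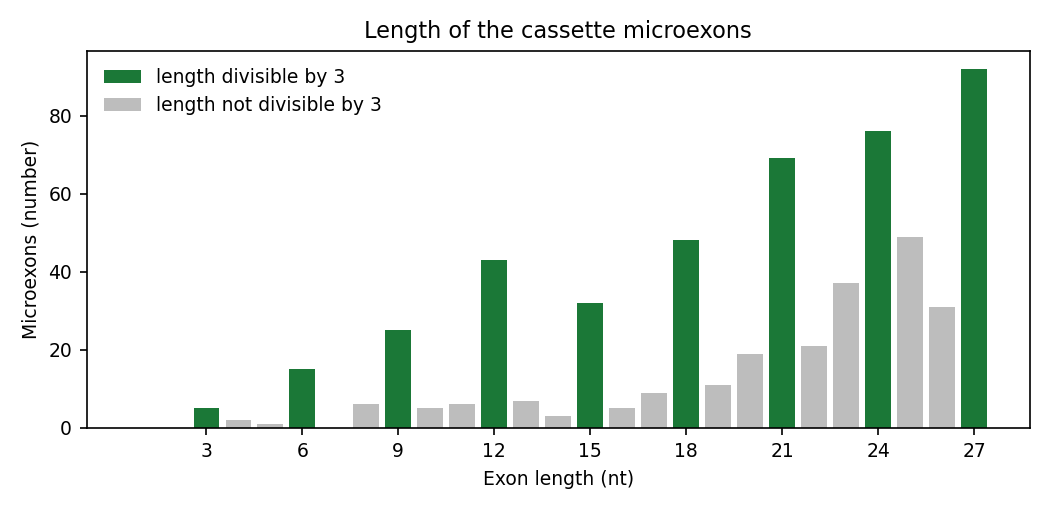
Number of distinct cassette microexons (vertical axis) at each exon length in nt (horizontal axis), with lengths divisible by 3 in green and all others in grey. The green bars stand above their neighbours at each multiple of 3, from 5 exons at 3 nt to 92 at 27 nt.

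The frequent 25-nt length is no multiple of 3. Its 49 exons lay in 37 genes, 4 of them in Gm10634 and 4 in 4921528I07Rik, both on chromosome 9. Of the 25-nt exons with enough reads, 29 of 40 were above 90% in round spermatids and 21 of 29 in spermatocytes. This length was singled out after its count was seen.

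The introns flanking the microexons had a median of 1345 nt before and 1430 nt after the exon, against 1772 and 1649 nt for the other cassette exons. A start or end was shared with another cassette exon by 76 microexons (12.3%), against 11.4% of the others. A partner in a listed mutually exclusive pair was found for 179 (29%), against 36.1% of the others.

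The inclusion level, the share of transcripts that keep the exon, was computed from the reads of both forms divided by the length of each form, and classes were formed among exons with a mean of at least 10 reads per library. This minimum was passed by 369 microexons in round spermatids and 433 in spermatocytes. In round spermatids 100 (27.1%) were below 10%, 85 (23.0%) between 10 and 90%, and 184 (49.9%) above 90%. In spermatocytes the same classes held 118 (27.3%), 100 (23.1%) and 215 (49.7%). Near-complete skipping was thus commoner than among the other cassette exons. Of these 6.68% in round spermatids and 5.43% in spermatocytes were below 10%, and 79.6% and 82.9% above 90%. The exons of 28 to 50 nt stood between. Of them 13.5% in round spermatids and 13.6% in spermatocytes were below 10%, and 65.4% and 68.9% above 90%. The median level of microexons was 89.7% in round spermatids and 89.8% in spermatocytes, against 99.3% in each stage for the other cassette exons. The listed microexons also had fewer reads, with a median of 77.8 per library in round spermatids and 104 in spermatocytes against 308 and 323 for the others. With a minimum of 20 reads per library 26.3% of the microexons in round spermatids and 26.6% in spermatocytes were below 10%, against 6.48% and 5.35% of the others.

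Reading frame and inclusion level went together. Lengths were divisible by 3 for 82.0% of the round spermatid microexons below 10%, 74.1% of those between 10 and 90% and 50% of those above 90%. In spermatocytes these shares were 82.2%, 77.0% and 49.3%. Among the other cassette exons the shares were 46.7%, 42.7% and 38.6% in round spermatids and 45.2%, 44.0% and 37.0% in spermatocytes. Those of 28 to 50 nt had the same order, with 53.5%, 48.9% and 33.6% in round spermatids and 55.9%, 49.8% and 34.1% in spermatocytes. Over all microexons, lengths divisible by 3 were thus most frequent in the class below 10% and least frequent in that above 90%. By length, the order of the first 2 classes rested on the exons of 19 to 27 nt, where the share was 86.9% below 10%, 64.8% between 10 and 90% and 44.9% above 90% in round spermatids, and 84.5%, 70.3% and 43.0% in spermatocytes. At 10 to 18 nt the share was instead highest between 10 and 90%, with 70.0%, 95.8% and 63.2% in round spermatids and 77.8%, 92.0% and 63.6% in spermatocytes. At 1 to 9 nt it was 88.9%, 71.4% and 70.0% in round spermatids and 81.8%, 81.8% and 76.9% in spermatocytes, from 26 and 35 exons. Exons above 90% were commoner among the longer microexons. They made up 38.5% at 1 to 9 nt, 41.3% at 10 to 18 nt and 54.2% at 19 to 27 nt in round spermatids, and 37.1%, 41.9% and 53.9% in spermatocytes. The median level was 62.4%, 68.5% and 93.5% in round spermatids, but in spermatocytes it was lowest in the middle range, at 62.9%, 54.7% and 94.9%. The share below 10% in spermatocytes was highest there too, at 31.4%, 34.3% and 24.2%.

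**Figure D2:**
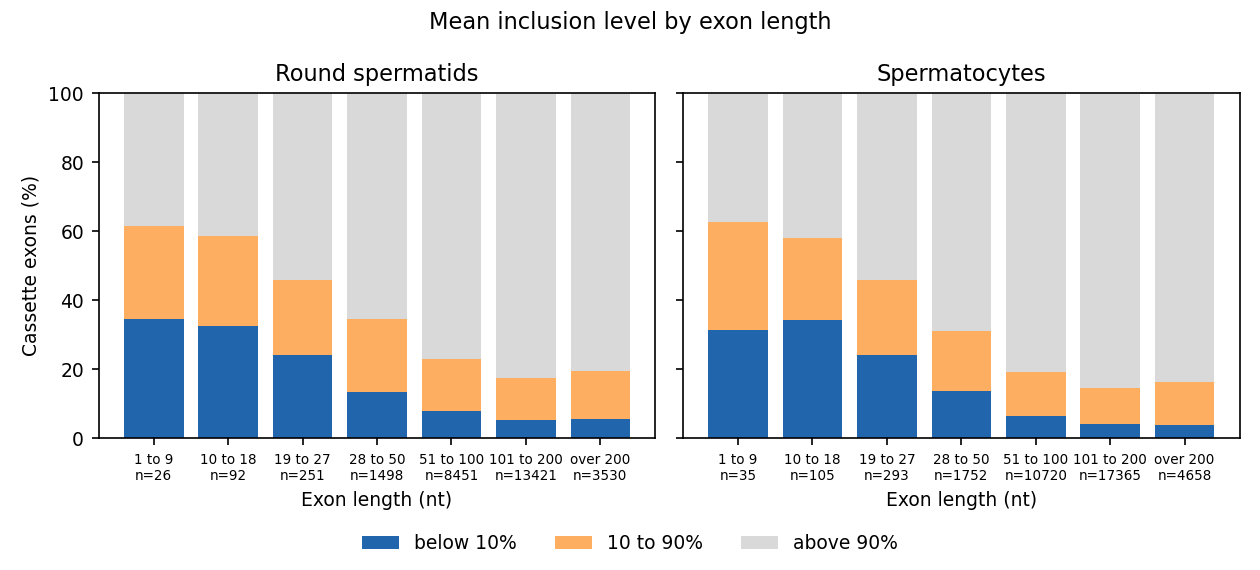
Share of cassette exons in % (vertical axis) with a mean inclusion level below 10% (blue), from 10 to 90% (orange) and above 90% (grey), by exon length in nt (horizontal axis, with the number of exons), in round spermatids on the left and spermatocytes on the right. The blue part takes 34.6% of the exons of 1 to 9 nt in round spermatids and 31.4% in spermatocytes, and 5.37% and 4.29% of those of 101 to 200 nt.

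The mean level over all microexons was within 1 point in all libraries of a stage. The mean over the 369 microexons was 61.3% and 61.5% in group 1 and 61.6% and 61.3% in group 2 of round spermatids. In spermatocytes the mean over the 432 with reads in every library was 60.3% and 60.3% in group 1 and 59.8% and 60.5% in group 2. The median over the same exons was 91.2% and 88.7% in group 1 and 88.2% and 90.2% in group 2 of round spermatids, and 86.4% and 90% in group 1 and 90.3% and 91.1% in group 2 of spermatocytes. For microexons between 10 and 90%, the 2 libraries of a sample group differed by a median of 6.97 points in group 1 and 5.85 in group 2 of round spermatids, and by 6.62 and 4.64 points in spermatocytes. The means of the 2 sample groups differed by a median of 5.38 points in round spermatids and 6.76 points in spermatocytes. A difference of means of 2 libraries varies less than one of single libraries, so these values are on different scales and were not tested against each other. For the other cassette exons between 10 and 90% the group means differed by a median of 5.94 points in round spermatids and 6.57 points in spermatocytes.

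The 617 microexons lay in 528 host genes, of which 470 held 1 and 11 held 3 or more. Host genes matched a RefSeq gene type for 599 exons, and 585 of these were in protein-coding genes and 12 in lncRNA genes. Chromosome 9 had 62 microexons, chromosome 2 had 55, chromosome 17 had 47, chromosome X had 10 and chromosome Y had 0. The gene with the most microexons was BC051142 on chromosome 17, with 18, followed by Clasp2 with 5 and by Izumo4, Gm10634 and 4921528I07Rik with 4 each. Izumo4, a relative of the sperm-egg fusion protein Izumo1, had its 4 exons of 15 to 27 nt at 97.8% or more in each library.

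BC051142 was singled out after its count was seen. Its 18 microexons lay within 32128 nt (mm10 chromosome 17, 34420387 to 34452514, plus strand), each had a length divisible by 3, and 11 were of 21 nt. They took 39.9% of the reads of microexons in round spermatids and 22.6% in spermatocytes. In each stage that listed them, 14 were above 90%, the lowest of their means being 97.1%. The other 4 differed widely. The first in 5′ to 3′ order, of 27 nt, was at 70.2%, 67.4%, 73.8% and 75.0% in round spermatids and at 57.7%, 51.1%, 57.1% and 55.9% in spermatocytes. The second, of 21 nt, was nearly always skipped, at means of 1.19% in round spermatids and 1.35% in spermatocytes. A 24-nt exon (34451631 to 34451654) was at 45.4%, 50.4%, 51.9% and 55.1% in round spermatids and at 45.8%, 45.5%, 48.9% and 50.2% in spermatocytes, so that the stages overlapped. Reads per exon ranged from 3715 to 91838 over the libraries that list them, so the partly included exons of this gene rest on many reads.

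**Figure D3:**
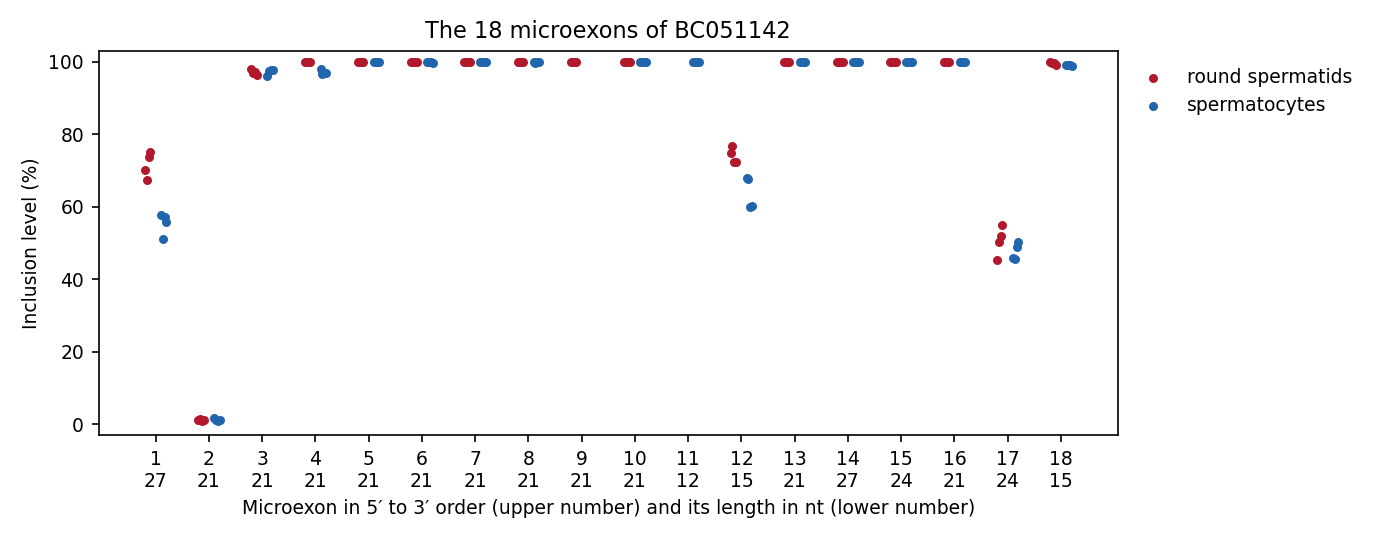
Inclusion level in % (vertical axis) of each of the 18 microexons of BC051142 in 5′ to 3′ order (horizontal axis, with the length in nt), 1 point per library, round spermatids in red left of spermatocytes in blue. Most exons sit near 100%, the second near 1%, and the first, twelfth and seventeenth lie between 45 and 77%.

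The 10 microexons with the most reads included 5 of BC051142. Of the rest, those of Gkap1 (23 nt), Gpx4 (25 nt, glutathione peroxidase 4), Morf4l1 (26 nt, listed for spermatocytes alone) and Bsg (25 nt, basigin) were at 100% in each library, rounded to 3 digits. All 4 have lengths that are no multiple of 3. The 24-nt exon of Sh3glb1, the membrane-binding endophilin B1, had 95415 reads and was the reverse case, at 0.0347% to 0.167% in round spermatids and 0.0289% to 0.0552% in spermatocytes.

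Genes known for neural or muscle microexons were examined as a list. Of its 45 genes, 32 held 46 microexons, and 42 of these had a length divisible by 3. Of the 32 with enough reads in round spermatids, 20 were below 10%, 9 between 10 and 90% and 3 above 90%, and of the 34 in spermatocytes 21, 10 and 3. Microexons of these hosts were thus mostly skipped in germ cells. The 9-nt exon of Asap1, an ARF GTPase-activating protein, was at means of 0.585% in round spermatids and 0.139% in spermatocytes, and the 24-nt exon of the translational regulator Cpeb4 at 1.51% and 0.194%. The exceptions were a 12-nt exon of the receptor phosphatase Ptprs, at 93.9% and 94.7%, and the 24-nt and 18-nt exons of the spectrin Sptan1, each at 99.7% or more in both stages. The 15-nt exon of Sptan1 was at 6.52% in round spermatids and 7.9% in spermatocytes. A 9-nt exon of the cytoskeletal linker Macf1 stood between, at 66.9% and 56.0%.

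The shortest microexons, of at most 6 nt, numbered 16 in round spermatids and 20 in spermatocytes, and 11 and 15 of them had enough reads to be tested. Nearly complete inclusion was found even at 3 nt. The 3-nt exons of Asxl1 and Asxl2, chromatin proteins of the Polycomb field, were at means of 99.7% and 98.6% in round spermatids and 99.3% and 98.6% in spermatocytes. A 3-nt exon of the kinase Map4k5 was at 99.5% and 97.4%, and the 4-nt exon of Mpc1, a subunit of the mitochondrial pyruvate carrier, at 99.7% and 98.4%. The 6-nt exon of Ap2m1, the mu subunit of the AP-2 clathrin adaptor, was at 98.7% and 99.8%. At the other end the 6-nt exons of Clec16a and Iffo1 had 0.113% and 0.0591% in spermatocytes, which rests on inclusion reads in 1 of 4 libraries.

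Most microexons kept their class between stages. Of 294 with enough reads in both, 272 were in the same class, 75 of them below 10%, 66 between 10 and 90% and 131 above 90%. None (0) was below 10% in one stage and above 90% in the other. Of the microexons listed in 1 stage alone, 51 in round spermatids and 103 in spermatocytes had enough reads, and 48 and 101 of these were below 10% or above 90%.

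The comparison of round spermatids with spermatocytes asked how inclusion differed along germ cell development. It was made over the 8 libraries with limma on the log2 odds of inclusion, with p-values adjusted by Benjamini-Hochberg over all events tested, and an exon was called at an adjusted p below 0.05. Of 330 microexons tested, 47 (14.2%) in 45 genes were called, against a background of 12.5% of all events and 11.1% of cassette exon rows. Microexons were thus called about as often as other events, though each is represented by its most-read row and the background counts every row. Higher in round spermatids were 36 and lower 11, while over all cassette exon rows 7.21% were called higher and 3.85% lower. The median log2 odds difference of the tested microexons was 0.26, against 0.07 over all events and 0.18 over cassette exon rows. Unadjusted p-values were below 0.05 for 88. A quasi-binomial test called 41, of which 37 were among the 47, and 11.8% of all events. The marker levels given above differ between the stages too, and an inclusion level is a mean over the sorted cells, so that a different mix of cells and a different level in each cell cannot be told apart.

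Called microexons were 36 of 47 (76.6%) divisible by 3, against 225 of 330 tested (68.2%). The difference of means was at least 10 percentage points in 26, of which 18 were higher in round spermatids. It had a median of 11.2 points and was as small as 0.413 points in the 11-nt exon of Lmf1, and 10 of the called exons were above 90% in both stages. The 4 libraries of one stage did not overlap those of the other in 28 of the 47 called exons, or 40 of 330 tested, against 10.7% of tested cassette exons. All alternative settings and leave-outs that gave a value kept the call in 15 of the 47. Without 1 library the count ran from 21, without the second library of group 1 of round spermatids, to 45.

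The largest rise in round spermatids, in percentage points, was in Ryr3. The 18-nt exon of Ryr3, a ryanodine receptor that releases calcium from internal stores, was at 56.3%, 88.1%, 47.2% and 75.7% in round spermatids and at 19.2%, 10%, 9.02% and 12.9% in spermatocytes. No round spermatid library was as low as the highest spermatocyte one. The log2 odds difference was 3.62 (SE 0.73, limma adjusted p = 2.262e-05), from 74 reads in round spermatids and 78 in spermatocytes. The 20-nt exon of Cacnb1, the beta-1 subunit of voltage-gated calcium channels, was at 84.7%, 93.8%, 93.4% and 91.4% in round spermatids and at 55.6%, 66.9%, 56.1% and 63.8% in spermatocytes. It had 1116 and 303 reads, and its difference was 2.72 (SE 0.33, limma adjusted p = 2.157e-14). The length of this exon is no multiple of 3. The 24-nt exon of Catsper2, a subunit of the sperm calcium channel, was at a mean of 98.5% in round spermatids and 94.1% in spermatocytes (limma adjusted p = 0.002097), with overlapping libraries. Catsper2 was added here after its values were seen, and no list of calcium channel genes was fixed or counted.

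Exons of Lysmd4 (26 nt) and Gon4l (24 nt) also rose in round spermatids. Lysmd4 had 48.9%, 54.7%, 57.4% and 51.6% in round spermatids and 18.6%, 16.2%, 22.1% and 26.3% in spermatocytes (log2 odds difference 2.11, SE 0.48, limma adjusted p = 0.0001986). Gon4l had 64.9%, 50.9%, 47.6% and 64.7% in round spermatids and 21.9%, 33.0%, 39.2% and 30.5% in spermatocytes (1.36, SE 0.32, limma adjusted p = 0.0005111). In neither did the stages overlap.

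The 24-nt exon of Shank1, a postsynaptic scaffold protein, was called with less behind it. It was at 77.5%, 36.5%, 0.0% and 14.7% in round spermatids, from 22 reads in all, and at 2.85%, 9.87%, 0.0% and 1.18% in spermatocytes. The stages overlapped, and the limma adjusted p of 0.02981 stood against 0.2444 in the quasi-binomial test.

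In percentage points, the largest falls in round spermatids were in Rapgef2, Ap1g1 and Myo6. The 18-nt exon of Rapgef2, an exchange factor for Rap GTPases, was at 0.0%, 9.02%, 20.3% and 18.2% in round spermatids and at 69.6%, 44.2%, 64.1% and 64.1% in spermatocytes. Each round spermatid library lay below each spermatocyte one, though on 30 and 71 reads (log2 odds difference -3.03, SE 1.05, limma adjusted p = 0.03382). The 9-nt exon of Ap1g1, the gamma-1 subunit of the AP-1 clathrin adaptor, was at 54.8%, 23.5%, 48.5% and 55.7% in round spermatids and at 75.9%, 86.1%, 89.9% and 83.4% in spermatocytes. This was the firmest of the falls, at -2.56 (SE 0.38, limma adjusted p = 1.437e-09) from 203 and 530 reads. The 27-nt exon of Myo6, an actin motor that moves towards the minus end, was at 3.55%, 18.3%, 14.0% and 5.13% in round spermatids and at 23.2%, 18.8%, 60.4% and 48.2% in spermatocytes (limma adjusted p = 0.0139), and the nearest libraries were 18.3% and 18.8%. The 24-nt exon of Uggt1, the glucosyltransferase that senses misfolded glycoproteins, was at a mean of 49.1% in round spermatids and 72.0% in spermatocytes. Its stages overlapped, and the quasi-binomial test did not call it (limma adjusted p = 0.04653, quasi-binomial 0.09084).

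**Figure D4:**
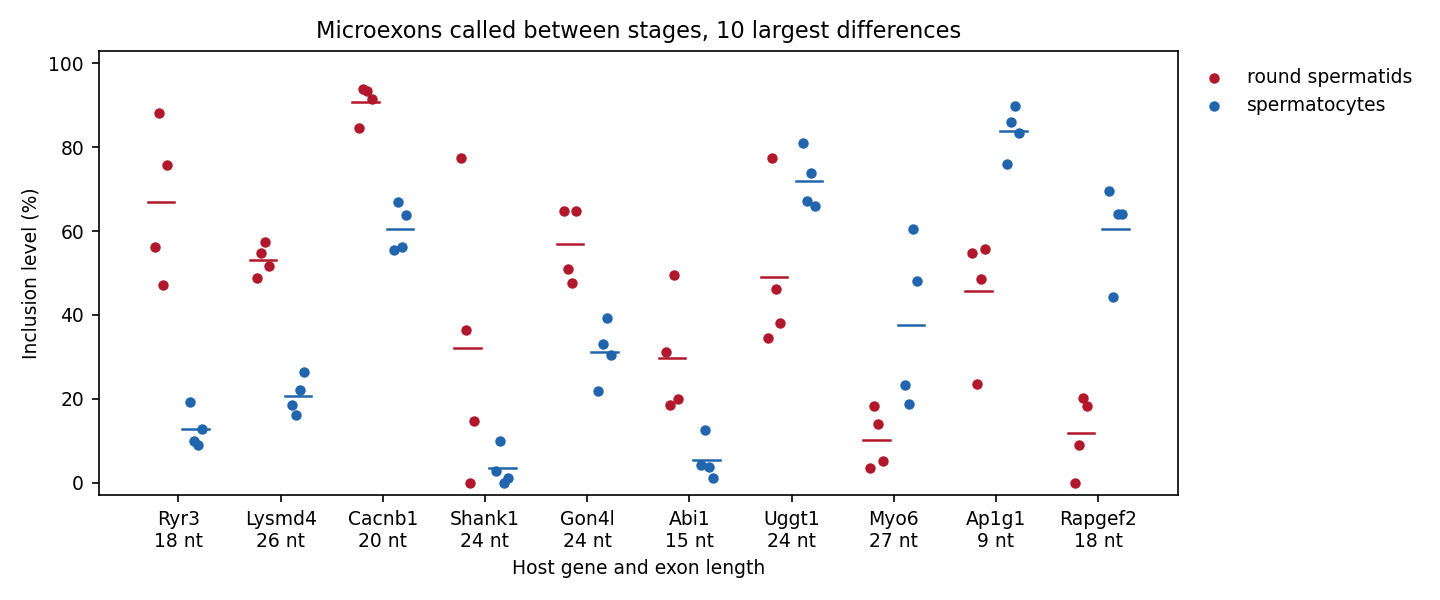
Inclusion level in % (vertical axis) of the 10 called microexons with the largest difference of stage means, 1 point per library and a line at the mean, round spermatids in red left of spermatocytes in blue for each host gene. From Ryr3 to Abi1 the red points are mostly higher and from Uggt1 to Rapgef2 the blue ones, with overlap of the stages in Shank1 and Uggt1.

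Among the known microexon hosts, 6 of 31 tested exons were called, 4 of them higher in round spermatids, against 47 of all 330 tested microexons (14.2%) and 11.1% of cassette exon rows. The 15-nt exon of Abi1, a subunit of the actin-nucleating WAVE complex, was at 31.2%, 18.5%, 49.5% and 19.9% in round spermatids and at 4.22%, 12.5%, 3.7% and 1.2% in spermatocytes (log2 odds difference 2.63, SE 0.58, limma adjusted p = 0.0001326). The 24-nt exon of the microtubule plus-end protein Clasp1 had means of 82.8% in round spermatids and 64.4% in spermatocytes, that of the translational regulator Cpeb2 10.7% and 6.55%, and the 27-nt exon of liprin-alpha-1, Ppfia1, 6.31% and 2.16%. Lower in round spermatids were the 18-nt exon of Macf1, at 11.8% against 34.2%, and the 24-nt exon of the transcription factor Mef2a, at 12.5% against 21.7%. The 9-nt exon of Nbea, at 4.94% against 24.1%, was not called (limma adjusted p = 0.05375).

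Of the exons of at most 6 nt, those of Clip1 and Nsfl1c were called between stages, where 14.2% of all tested microexons and 12.5% of all events were called. How many exons of at most 6 nt were tested between stages is not given here, so these calls give no share for the shortest exons. The 6-nt exon of Clip1, the microtubule plus-end protein CLIP-170, was at 94.4%, 94.0%, 97.0% and 96.7% in round spermatids and at 77.1%, 82.4%, 91.4% and 95.9% in spermatocytes (limma adjusted p = 0.0002381). The highest spermatocyte library reached the round spermatid levels. The 6-nt exon of Nsfl1c, the p97 cofactor p47, was at 8.4% and 1.95%, and the quasi-binomial test did not call it (limma adjusted p = 0.01183, quasi-binomial 0.09342).

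Of the 18 microexons of BC051142, 3 were called between stages, where 14.2% of all tested microexons and 11.1% of cassette exon rows were called. How many of the 18 were tested between stages is not given here, so the 3 calls give no share for this gene. The first exon of 27 nt rose in round spermatids by a log2 odds difference of 1.04 (SE 0.12, limma adjusted p = 1.117e-14). The 15-nt exon from 34446019 to 34446033 was at 74.9%, 76.8%, 72.4% and 72.2% in round spermatids and at 68.0%, 67.7%, 60.0% and 60.2% in spermatocytes (0.70, SE 0.12, limma adjusted p = 2.064e-07). The 15-nt exon from 34452500 to 34452514 was at 99.5% and 99.0%.

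Leaving out 1 library at a time showed which of these stage differences rest on single libraries. The calls of Ryr3, Lysmd4, Cacnb1, Gon4l, Ap1g1, Abi1 and the Clasp1 24-nt exon were kept in all 8 leave-outs, or in each that gave a value. That of Uggt1 was lost in 7, that of Shank1 in 6, that of Rapgef2 in 6 of the 7 that gave a value, those of Macf1 and Mef2a in 5 and that of Nsfl1c in 3. Myo6 was not called without the second library of group 2 of round spermatids (limma adjusted p = 0.1528) or the first of group 2 of spermatocytes (0.06543). Clip1 was not called without the first library of group 2 of spermatocytes (limma adjusted p = 0.1582), and Cpeb2 not without the second library of group 1 or of group 2 of spermatocytes (0.1764 and 0.208). For Ppfia1 the log2 odds difference of 2.77 became -0.01 without the second library of group 1 of round spermatids, and its call was also lost without the second of group 2 (limma adjusted p = 0.0593). Catsper2 lost its call without the second library of group 1 or the first of group 2 of round spermatids (limma adjusted p = 0.07264 and 0.1015).

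Regulators of microexon splicing were examined through their own cassette exons of any length. Of the 27 genes listed 21 had a tested exon in both stages, and 9 had at least 1 called between them (Hnrnph1, Mbnl2, Ptbp2, Puf60, Sf1, Srrm1, Srrm2, Srsf11 and U2af2). Over the 21 genes 14 of 73 cassette rows were called, 10 of them higher in round spermatids, against 11.1% of all cassette rows called and 7.21% called higher. A gene with more rows has more chances of a call, and the share of all genes with a call was not computed. Between the sample groups of a stage 0 of 98 cassette rows of 21 genes in round spermatids and 0 of 117 of 23 genes in spermatocytes were called. Only 0.131% and 0.537% of all events were called there, so these counts say little of the regulators.

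Between the sample groups of a stage, which together are the knock-out and wild type libraries, few microexons were called. In round spermatids it was 1 of 369 (0.271%), against 0.131% of all events, and in spermatocytes 4 of 433 (0.924%), against 0.537%. Of the 4 in spermatocytes 3 were higher and 1 was lower in group 1, where 0.139% of all events were called higher and 0.398% lower. The quasi-binomial test called 1 and 3 of these microexons, against 0.246% of all events in round spermatids and 0.291% in spermatocytes, and unadjusted p-values were below 0.05 for 37 in round spermatids and 43 in spermatocytes. The median log2 odds difference of group 1 minus group 2 was -0.12 in round spermatids, against -0.13 over all events and -0.33 over cassette exon rows. In spermatocytes it was 0.02, against -0.38 over all events and -0.87 over cassette exon rows. Each stage has 4 libraries, and the calls were 0 when either library of group 2 was left out. Without the first or the second library of group 1 they became 37 (10.6%) or 25 (7.65%) in round spermatids, against 14.8% or 8.88% of all events, and 79 (19.6%) or 58 (15.6%) in spermatocytes, against 21.2% or 21.1%. The number of calls thus rests on each library, over all events as in microexons.

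The exon called in both stages was the 12-nt exon of Dnm2, the GTPase dynamin 2 that severs endocytic vesicles (mm10 chromosome 9, 21490658 to 21490669, plus strand). It was at 91.2% and 88.2% in group 1 and 71.4% and 65.6% in group 2 of round spermatids. In spermatocytes it was at 84.5% and 87.1% in group 1 and 71.3% and 69.3% in group 2. The groups did not overlap in either stage, and the gap between them was wider than that between libraries of a group. The log2 odds difference was 1.90 (SE 0.27, limma adjusted p = 6.953e-08) in round spermatids and 1.41 (SE 0.22, limma adjusted p = 8.502e-07) in spermatocytes. In the 4 leave-outs of each stage its difference stayed positive, from 1.70 to 2.25 and from 1.19 to 1.51, but it was not called in any of them (limma adjusted p 0.2012 to 0.3582 in round spermatids and 0.06141 to 0.7285 in spermatocytes). The values belong to the form whose next exon starts at 21494504. Against another next exon, at 21491246, the same microexon had 284 and 331 reads in the 2 stages and was at 96.1% or more in each library.

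In spermatocytes 3 further microexons were called. The 9-nt exon of Kif3a, a motor subunit of the kinesin that builds cilia and flagella (chromosome 11, 53590717 to 53590725, plus strand), was at 85.1% and 90.1% in group 1 and 97.3% and 96.8% in group 2. This was the only called fall (log2 odds difference -2.08, SE 0.40, limma adjusted p = 0.0002133). In round spermatids it was at 93.4% and 96.4% in group 1 and 96.9% and 98.2% in group 2 and was not called (limma adjusted p = 0.6411). These values belong to the form whose next exon starts at 53593374. Against the next exon at 53593395 it had 125 reads in spermatocytes, at 100% and 90.4% in group 1 and 91.6% and 100% in group 2. Against that at 53594826 it had 77 reads in spermatocytes, at 92.5% and 74.8% in group 1 and 93% and 94.4% in group 2. The 27-nt exon of Fip1l1, a subunit of the machinery that cleaves and polyadenylates pre-mRNA (chromosome 5, 74585046 to 74585072, plus strand), was at 23.8% and 17.2% in group 1 and 7.3% and 6.26% in group 2 (1.74, SE 0.35, limma adjusted p = 0.0004292). In round spermatids its groups overlapped, at 10.4% and 9.36% in group 1 and 16% and 9.18% in group 2.

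The 24-nt exon of Cspp1, a centrosome and spindle pole protein (chromosome 1, 10059824 to 10059847, plus strand), was at 22.9% and 11.9% in group 1 and 4.88% and 4.02% in group 2 of spermatocytes (2.02, SE 0.47, limma adjusted p = 0.006965). The libraries of group 1 were themselves far apart, and in the quasi-binomial test the exon was not called (adjusted p = 0.09384). Round spermatids had 12.7% and 4.87% in group 1 and 5.11% and 8.69% in group 2. Without 1 library Kif3a, Fip1l1 and Cspp1 each kept the direction in spermatocytes. The limma adjusted p then ran from 0.04704 to 0.7285 for Kif3a, from 0.0522 to 0.7285 for Fip1l1 and from 0.04995 to 0.7285 for Cspp1, and each lost its call without either library of group 2 or without the first of group 1. In group 2 Kif3a lies near 100%, and Cspp1 and Fip1l1 lie below 10%. On data simulated with a beta-binomial spread, the fit made most of its false calls within a stage at exons near 0 or 100%. There an exon was placed by its level over all libraries of the stage, and Cspp1 and Fip1l1 were above 10% in group 1. Their levels in group 2 alone therefore do not place them near 0 by that rule. The spread of that simulation was a fixed setting, not estimated from these libraries, so it does not tell whether any of these calls is false. Whether the group difference of Kif3a, Fip1l1 or Cspp1 differs between the stages was not tested.

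**Figure D5:**
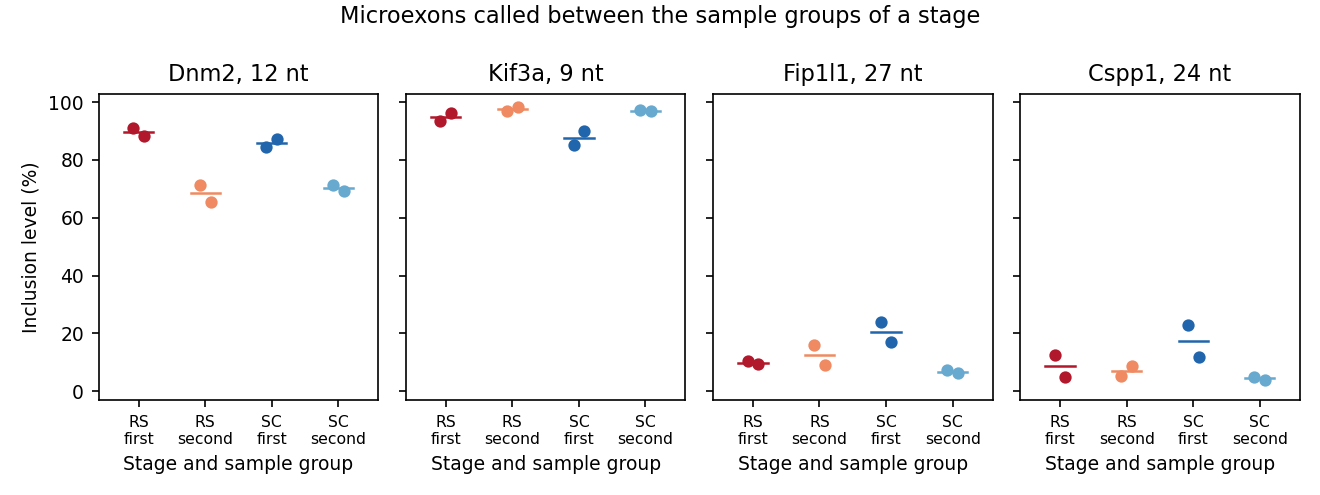
Inclusion level in % (vertical axis) of the 4 microexons called between the sample groups of a stage, 1 point per library and a line at the mean, with group 1 (first) and group 2 (second) of round spermatids (RS) left of those of spermatocytes (SC). Dnm2 is higher in group 1 in both stages, and in spermatocytes the 2 groups do not overlap in any of the 4 exons.

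Marker levels of several cell types differed between the sample groups of both stages. In spermatocytes the summed level of the spermatogonia markers (8 of 9 with an event) was 493 and 185 per 1000000 reads in group 1. In group 2 of spermatocytes it was 69.3 and 66.4. The Sertoli cell markers in spermatocytes (4 of 7 with an event, none for Sox9, Amh and Rhox5) were at 205 and 135 in group 1. In group 2 of spermatocytes they were at 40.9 and 69.2. In round spermatids the Sertoli cell markers (3 of 7 with an event) were at 61.7 and 81.2 in group 1 and 38.8 and 49.0 in group 2, so that the groups did not overlap there either. The spermatogonia markers of round spermatids (4 of 9 with an event) were at 16.8 and 10 in group 1 and 14.5 and 11.5 in group 2. The elongating spermatid markers (5 of 6 with an event, Odf1 with none) were at 13300 and 15300 in group 1 and 21100 and 16600 in group 2 of round spermatids. In spermatocytes they were at 2090 and 2390 in group 1 and 3040 and 2850 in group 2. Odf2 made up most of the sum in spermatocytes, at 1400 and 1760 in group 1 and 2330 and 1980 in group 2. Gapdhs and Akap4 were likewise higher in group 2 there, and the groups overlapped in Akap3 and Oaz3. Leydig, peritubular and immune cell markers were at 28.5 and 20.1 in group 1 and 16.9 and 16.1 in group 2 of round spermatids (4 of 10 with an event), and at 66.1 and 40.0 in group 1 and 34.6 and 44.3 in group 2 of spermatocytes (5 of 10), where the groups overlapped. Among the spermatocyte markers in spermatocytes, Sycp3 was at 994 and 728 in group 1 and 525 and 430 in group 2. Sycp1, Sycp2, Dmc1, Hormad1, Hormad2, Smc1b and Tex101 were likewise higher in both libraries of group 1. Ybx2 went the other way, at 5110 and 5390 in group 1 and 5760 and 5980 in group 2. So did Spo11, at 166 and 168 in group 1 and 270 and 215 in group 2. In Stag3 and Mei1 the groups overlapped. The part of these cells in the calls within a stage was not tested.

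In the authors' deposited table of round spermatids, 15 of 477 microexons (3.14%) had an FDR below 0.05, against 2.5% of all cassette exon rows. For spermatocytes the authors' deposited table gave 36 of 525 (6.86%), against 4.52%. A microexon is represented here by its row with the most reads, whereas the background counts every row, so these shares are on different units. Dnm2, Kif3a, Fip1l1 and Cspp1 were among the 36, with FDR values in the authors' deposited table of 4.637e-12, 1.636e-11, 1.281e-10 and 2.291e-06.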

How the data were processed

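Reads were aligned with STAR to mm10, per the submitters' processing notes, and neither version is known from the sources used here. The authors deposited 10 tables of splicing events, 1 per stage and event type. Per the file headers these hold read counts for inclusion and for skipping, form lengths, the inclusion level as a fraction, the difference of levels (a score), and a p-value with its FDR. Each deposited count cell joins the counts of 2 libraries with a comma and carries neither genotype nor replicate number. The inclusion form was the exon length plus 149 nt, and recomputed inclusion levels lay within 0.0005 of the deposited fractions.

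The row with the most reads stood for an exon that several rows list. Shares over all events or all cassette exon rows count every row, so they are on another unit than shares of microexons. Events with a mean of at least 10 reads per library and a read of each form were tested. The response in limma 3.58.1 (R 4.3.3) was the log2 odds of length-normalised inclusion, fitted over all events of 5 types, after adding 0.5 reads per form on average, in proportion to a library's reads of that event. Weights were the inverse counting variance, and the moderated spread followed the reads of the rarer form. P-values were adjusted by Benjamini-Hochberg. A library without reads of an event was left out of that event's fit, which touched 6 microexons between stages and 1 in spermatocytes. The stage comparison used events in both tables and 4 groups.

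The members, lists and fit were chosen with earlier results of these data known. The trend on the rarer form and the scaling of added reads had been adopted after counts of calls were seen. The fit was tested on simulated data. With a beta-binomial spread, which was run first, it made many false calls within a stage, mostly at exons near 0 or 100% inclusion. With a spread shared on the log odds scale, run after that, it made few.

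Exons named in the text are, per comparison, at most the 10 called with the largest difference in points, the 10 with the most reads, the tested exons of at most 6 nt and those in the listed hosts, with values given for some of each. Others are said to have been chosen after their values were seen. Catsper2, Lmf1, Pgap2, Supt20, Izumo4, Gm10634, 4921528I07Rik, Pcnt and Tpd52l2 also fall outside this rule. Pcnt and Tpd52l2 are named because their sign turned without 1 library. Marker levels are reads of a gene's most covered event per 1000000 of such reads. No genome of mm10 was used here, so motifs in flanking introns were not counted. Tables were handled with pandas 2.3.3 and plots drawn with matplotlib 3.10.9 in Python 3.11.15. Counting error shrinks with reads, and levels from few reads are given with their number.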

Additional observations from a re-analysis of the deposited data

How the results depend on the processing

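No paired analysis was possible because the cells of the deposited tables carry no replicate number, so no replicate block could be fitted. In round spermatids the 1 called microexon became 0 with the trend on total reads and without a minimum of reads, and 2 with cassette exons alone or with any row of an exon. Leaving out 1 library gave 0 to 37, with 14.8% of all events called at 37. In spermatocytes the 4 became 0 with the trend on total reads, without weights or without a minimum, and 7 with cassette exons alone, and leaving out 1 library gave 0 to 79, with at most 2 of the 4 among them and 21.2% of all events called at 79. Between stages the 47 became 25 without weights, 28 with the trend on total reads and 21 to 45 without 1 library. Without 1 library the log2 odds differences ranged from -0.17 to 2.36 for Pcnt, from -0.01 to 3.11 for Ppfia1 and from -0.28 to 3.10 for Tpd52l2. The sign turned without the first library of group 1 of round spermatids for Pcnt and without the second for Ppfia1 and Tpd52l2, and the cause was not tested. The share of microexons between 10 and 90% became 35.0% in round spermatids and 31.4% in spermatocytes without a minimum, an alternative chosen after seeing the data. For exons called in any comparison, the row with the next most reads moved the level in 28 of 33 cases of an exon in a stage. Moved means by at least the standard deviation of the 4 library levels in the row with the most reads. Counting error in rows of few reads is part of such a move. Levels from few reads carry more counting error, and Shank1 and Rapgef2, on 22 and 30 reads in round spermatids, each lost their call in 6 leave-outs.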
